A study of Mus musculus with 4 samples.

Results

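The Notch receptors, ligands and targets described here are 10 genes chosen by symbol from a list drawn up with earlier results of these data known, out of 45777 genes in the deposited files. They are the receptors Notch1, Notch2 and Notch3, the ligands Jag1, Jag2 and Dll1, the glycosyltransferase Lfng, and the target genes Hes1, Hey1 and Nrarp. All 10 were found in every library, and all 10 passed the filter on low counts that left 18115 genes for testing. RNA sequencing compared mouse gastric organoids labelled Smad4 Knockout, in which Cdh1, Trp53 and Smad4 are knocked out (lines CPS1 and CPS4), with organoids labelled Control, in which Cdh1 and Trp53 are knocked out (lines CPE and CPG). The controls therefore carry the Cdh1 and Trp53 knockouts too, and no organoid with either gene intact was analysed. Each group has 2 libraries, named here Smad4 Knockout 1 and 2 and Control 1 and 2, and each library comes from its own organoid line. All organoids were maintained with 5% fetal bovine serum. Before harvest they were kept for 2 days in medium with B27 and N2 and without serum or L-WRN conditioned medium. The labels give neither the animals behind the lines nor whether the Smad4 Knockout lines descend from the control lines, so the p-values measure only the spread between these 4 libraries.

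Notch receptors are activated by ligands of the Jagged and Delta-like families on a neighbouring cell. Proteolytic cleavage then frees the receptor's intracellular domain, which joins the DNA-binding protein RBPJ in the nucleus and switches on target genes such as Hes1, Hey1 and Nrarp. Fringe enzymes such as LFNG add sugars to the receptor and shift its response between ligands. In the epithelium of the stomach and intestine Notch signalling maintains progenitor cells and restrains the formation of secretory cells.

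Promoter sequence was at hand for 8 of the 10 members, from RefSeq (GRCm38.p6, the build whose coordinates mm10 uses), and not for Hes1 or Hey1. The windows shown, those with the most marked motifs among the members whose groups did not overlap, are the 250 bases before the annotated start of Lfng and Nrarp, a pair whose levels were lower in both Smad4 Knockout libraries than in both controls, and of the outer of the 2 annotated starts of Dll1, whose levels were higher. Capitals mark 3 motifs searched on both strands, namely TGGGAA (reverse complement TTCCCA), the core bound by RBPJ, CACGTG, an E-box read by basic helix-loop-helix proteins, and CAGAC (reverse complement GTCTG), a SMAD box.
Lfng, chr5:140607091-140607340, plus strand: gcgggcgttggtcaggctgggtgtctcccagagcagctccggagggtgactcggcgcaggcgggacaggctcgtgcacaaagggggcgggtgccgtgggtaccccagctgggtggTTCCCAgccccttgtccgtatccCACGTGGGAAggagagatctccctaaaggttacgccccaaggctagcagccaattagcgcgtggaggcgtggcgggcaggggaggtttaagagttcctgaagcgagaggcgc
Nrarp, chr2:25180508-25180757, plus strand: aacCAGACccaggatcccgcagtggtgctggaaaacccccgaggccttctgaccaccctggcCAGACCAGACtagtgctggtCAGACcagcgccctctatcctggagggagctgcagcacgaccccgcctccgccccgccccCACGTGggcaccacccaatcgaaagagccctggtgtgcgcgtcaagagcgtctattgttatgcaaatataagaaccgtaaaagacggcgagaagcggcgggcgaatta
Dll1, chr17:15376933-15377182, minus strand: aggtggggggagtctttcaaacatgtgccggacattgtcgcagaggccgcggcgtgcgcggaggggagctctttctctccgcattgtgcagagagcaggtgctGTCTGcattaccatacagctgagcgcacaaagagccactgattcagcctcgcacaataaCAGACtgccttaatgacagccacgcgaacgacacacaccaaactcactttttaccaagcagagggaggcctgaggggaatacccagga

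The Lfng window held the RBPJ core 2 times, once on the minus strand from 135 to 130 bases before the start and once on the plus strand from 108 to 103 bases before it. The copy nearer to the start overlaps the E-box at 112 to 107 bases before the start. Of 32851 promoter windows of this length in the RefSeq table, 21.6% held the RBPJ core at least once and 2.77% at least 2 times, and 6.02% held the E-box. The Nrarp window held the E-box once, at 108 to 103 bases before the start, and the SMAD box 4 times, all within 247 to 164 bases before the start. At least 4 SMAD boxes were found in 0.475% of all windows and at least 1 in 42.2%. The windows shown were picked for their many motifs, so such shares do not measure how unusual those windows are. The Dll1 window held the SMAD box 2 times, and at least 2 were found in 11.7% of all windows. Among the windows not printed, that of Jag2, whose levels were lower as well, held none of the 3 motifs, as did those of Notch1 and Notch2. Jag1, whose groups overlapped, had 1 SMAD box, Notch3, which overlapped too, had 2, and the inner Dll1 window had 1. No RBPJ core was found in the windows of Nrarp, Dll1, Notch1, Notch2, Notch3, Jag1 or Jag2, which says only that these letters are not in those windows. A match in these letters is a description and not a measured binding site.

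Total counts were 85649781 and 96402585 in the Smad4 Knockout libraries and 92334224 to 99845702 in the controls. Smad4 itself was at 54.4 and 52.9 CPM (counts scaled to normalised library size) in the Smad4 Knockout libraries and at 94.5 and 103 CPM in the controls (log2 fold change -0.88, SE 0.10, edgeR adjusted p = 0.677). Reads of Cdh1 (26.02 to 44.1 CPM) and Trp53 (4.69 to 6.98 CPM) were found in all 4 libraries, and levels of whole genes do not show which exons were deleted. Of 14 gastric and simple epithelial markers 12 had over 3 counts in every library, while Pgc, which marks chief cells, had none in any. Among these markers Gkn1, Tff1 and Tff2 lay higher in both Smad4 Knockout libraries than in both controls, and Muc6, Sox2 and Cldn18 lay lower. The other markers with counts, Gkn2 and Muc5ac among them, overlapped between the groups. Over all tested genes the groups did not overlap for 36.9%, and none of these markers passed edgeR's test. Gkn1, a secreted protein of surface mucous cells, had 5.87 and 19.97 CPM in the Smad4 Knockout libraries, against 2.95 and 2.54 CPM in the controls (log2 fold change 2.24, adjusted p = 0.677). The trefoil factors followed, with Tff1 at 31.6 and 61.4 CPM in Smad4 Knockout against 24.7 and 16.0 CPM in Control and Tff2 at 37.6 and 23.4 CPM in Smad4 Knockout against 17.9 and 12.9 CPM in Control. Muc6 had 0 counts in both Smad4 Knockout libraries, against 16 and 12 counts in the controls. The summed level of the 6 endothelial markers was 3.10 to 4.72 CPM in the Smad4 Knockout libraries and 5.03 to 5.71 CPM in the controls, and Erg and Emcn had no count. That of the 6 mural and smooth muscle markers was 3.54 to 3.76 CPM in the Smad4 Knockout libraries and 2.35 to 3.52 CPM in the controls, and Pdgfrb and Des had no count. Enteroendocrine markers summed to at most 0.165 CPM in any library, immune markers to at most 4.38 CPM and fibroblast markers to at most 2.00 CPM in the Smad4 Knockout libraries and 3.58 CPM in the controls. Parietal and chief cell markers summed to 3.54 and 3.598 CPM in the Smad4 Knockout libraries and to 3.91 to 4.02 CPM in the controls, with Atp4b and Cblif at no count. The part of other cells in the results was not tested. In bulk RNA, fewer cells of a type and less RNA per cell cannot be told apart.

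The levels of the members spanned more than 2 orders of magnitude per length, from Hes1 at the top to Hey1 at the bottom. Hes1, a helix-loop-helix repressor and the best known Notch target, had 47.1 and 64.4 TPM (a level scaled to gene length and depth) in the Smad4 Knockout libraries, against 52.9 and 50.5 TPM in the controls. Notch2, the leading receptor here, had 38.7 and 31.4 TPM in the Smad4 Knockout libraries, against 28.2 and 39.9 TPM in the controls. Jag1 (19.6 to 24.1 TPM over the 4 libraries), Nrarp (19.6 to 24.9 TPM), Lfng (12.3 to 20.3 TPM) and Jag2 (9.63 to 16.1 TPM) followed, and each of them overlapped the next in range. Dll1 (4.75 to 9.82 TPM) and Notch1 (4.36 to 6.07 TPM) came after Jag2 and also overlapped with their neighbour in the order. Hes1 lay apart from Notch2, Notch2 apart from Jag1, Notch1 apart from Notch3 (1.01 to 1.65 TPM) and Notch3 apart from Hey1 (0.218 to 0.744 TPM). This order of the 10 means was the same on CPM per kilobase of transcript and with 1 library left out, except that Nrarp passed Jag1 without Smad4 Knockout 1.

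**Figure D1:**
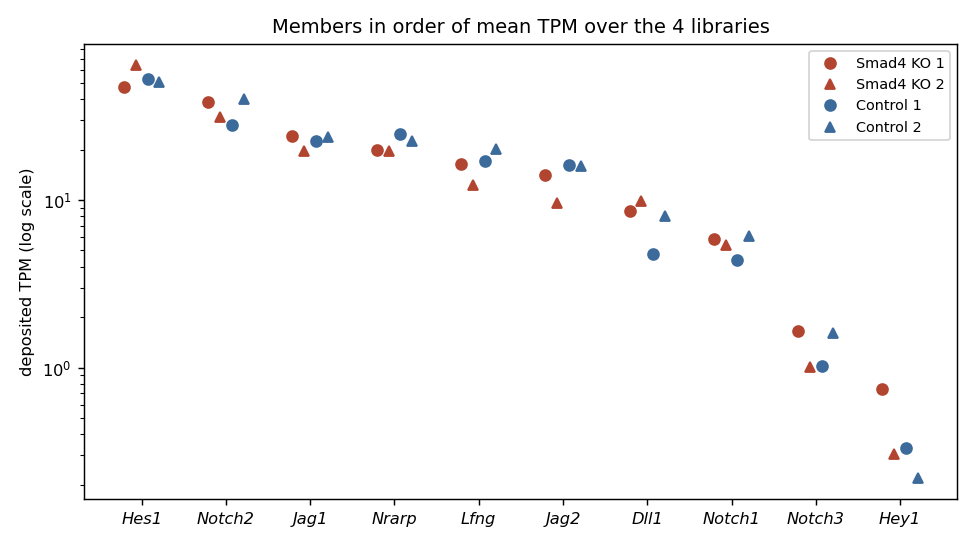
Deposited TPM (log scale) of the 10 members, from the highest to the lowest mean over the 4 libraries. Red marks Smad4 Knockout and blue marks Control libraries, with circles for library 1 and triangles for library 2. Hes1 lies highest at 47.1 to 64.4 TPM and Hey1 lowest at 0.218 to 0.744 TPM.

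The comparison asked whether loss of Smad4, added to that of Cdh1 and Trp53, goes with a different level of these genes. No member passed edgeR's quasi-likelihood test at an adjusted p of 0.05, where 0.0% of all 18115 genes passed. DESeq2 called 0 of the 10 members as well, and limma on TPM called 0 of the 9 that passed its filter, while DESeq2 called 0.701% of the genes tested, 0.53% as higher and 0.171% as lower. At an unadjusted p under 0.05 edgeR had 2 of the 10 members, Jag2 and Lfng, both lower in the Smad4 Knockout libraries, against 6.36% of all genes in either direction and 3.04% as lower. The libraries of the groups did not overlap for 4 of the 10 members, Dll1 as higher and Jag2, Lfng and Nrarp as lower, against 36.9% of all genes in either direction, 18.2% as higher and 18.6% as lower. That count of 4 became 7 with each library left out in turn, against 61.0% to 72.7% of the same 18115 genes. The median log2 fold change of the 10 members was -0.0050, and that of all tested genes was -0.0026. The members' median ranged from -0.18 to 0.11 when 1 library was left out.

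**Figure D2:**
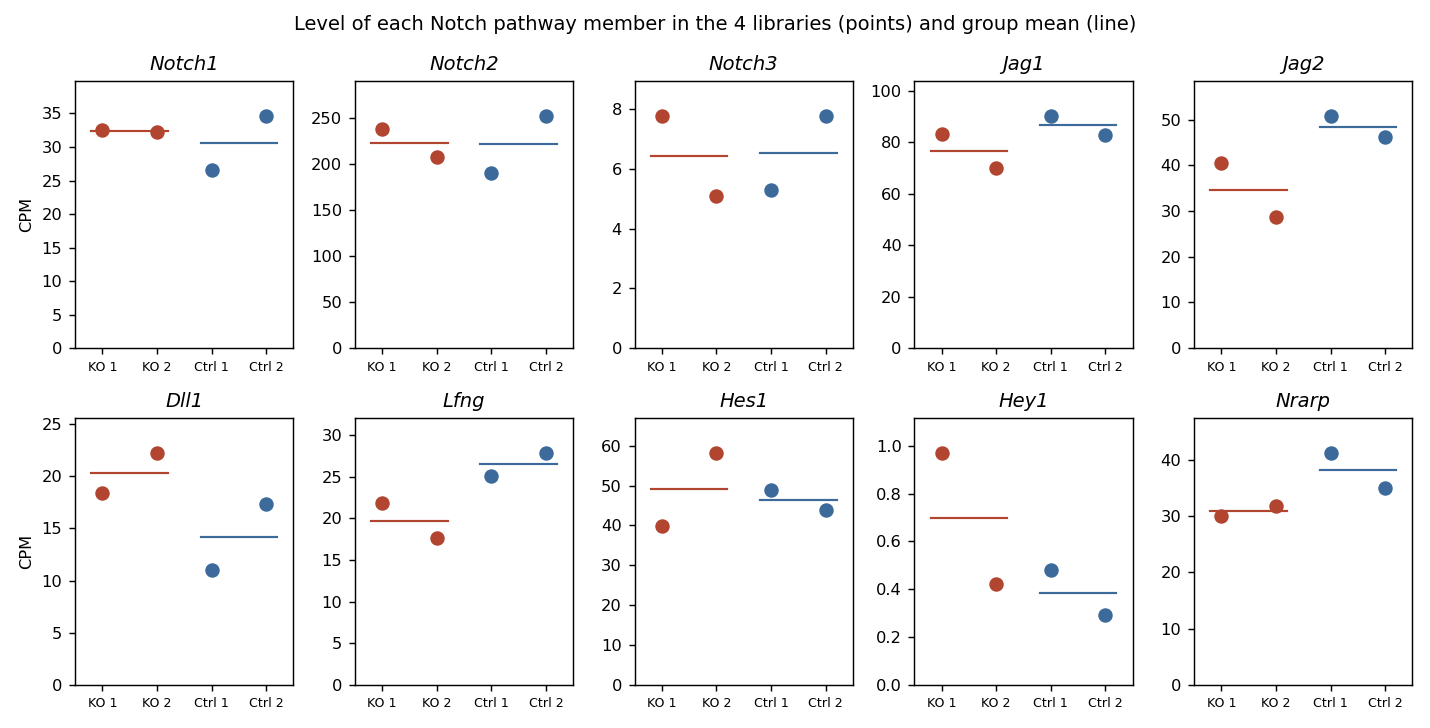
CPM of each member in the 4 libraries (points), with the mean of each group (line), Smad4 Knockout in red on the left and Control in blue on the right, each axis starting at 0. Jag2, Lfng and Nrarp lie lower in both Smad4 Knockout libraries than in both controls, Dll1 lies higher, and the other members overlap.

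Among the ligands the Jagged genes and Dll1 lay on opposite sides of 0. Jag2, a Jagged ligand of Notch receptors (gene ID 16450, chromosome 12, 112907803 to 112929812, minus strand), had 40.5 and 28.8 CPM in the Smad4 Knockout libraries, against 50.8 and 46.1 CPM in the controls. Both Smad4 Knockout libraries lay below both controls, and Smad4 Knockout 2 was the lowest of all. The means were 34.6 ± 8.28 CPM in Smad4 Knockout and 48.4 ± 3.33 CPM in Control (SD, n = 2 each), and the log2 fold change of -0.49 (SE 0.18) had a 95% interval of -0.93 to -0.04 with an edgeR adjusted p of 0.751. Without Smad4 Knockout 2 its log2 fold change was -0.25, and without Smad4 Knockout 1 it was -0.75.

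Dll1, a Delta-like ligand (gene ID 13388, chromosome 17, 15367354 to 15376932, minus strand), had 18.4 and 22.3 CPM in the Smad4 Knockout libraries, against 11.01 and 17.4 CPM in the controls. The gap between the lowest Smad4 Knockout library and Control 2 was small beside the distance between the controls. Its log2 fold change was 0.52 (SE 0.24, edgeR adjusted p = 0.819), with a 95% interval of -0.08 to 1.12. Its size depended on which control was used, as it was 0.23 without Control 1 and 0.88 without Control 2.

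Jag1, the ligand with the highest level (gene ID 16449, chromosome 2, 137081451 to 137116520, minus strand), had 83.4 and 69.9 CPM in the Smad4 Knockout libraries, against 90.2 and 82.9 CPM in the controls. Smad4 Knockout 1 lay just above Control 2, so the groups overlapped. Its log2 fold change was -0.18 (SE 0.13, edgeR adjusted p = 0.888), with a 95% interval of -0.49 to 0.13, and it was -0.04 without Smad4 Knockout 2.

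Shares of the summed ligand TPM show the make-up within each library, a summary chosen after the values were seen. Over Jag1, Jag2, Dll1, Dll3 and Dll4, Jag1 took 50.9% and 49.6% in the Smad4 Knockout libraries and 51.1% and 49.03% in the controls. Jag1 thus held close to the same share throughout, while Jag2 took 29.8% and 24.4% in the Smad4 Knockout libraries and 36.7% and 32.8% in the controls. Dll1 took 18.2% and 24.8% in the Smad4 Knockout libraries and 10.8% and 16.6% in the controls. The ratio of Dll1 to Jag2, in TPM, was 0.611 and 1.02 in the Smad4 Knockout libraries and 0.295 and 0.507 in the controls. Dll1 lay higher and Jag2 lower without overlap, so the groups could not overlap in the ratio, which adds nothing to those differences. With 2 libraries a group no exact permutation test of this ratio could reach 0.05, and none was run.

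**Figure D3:**
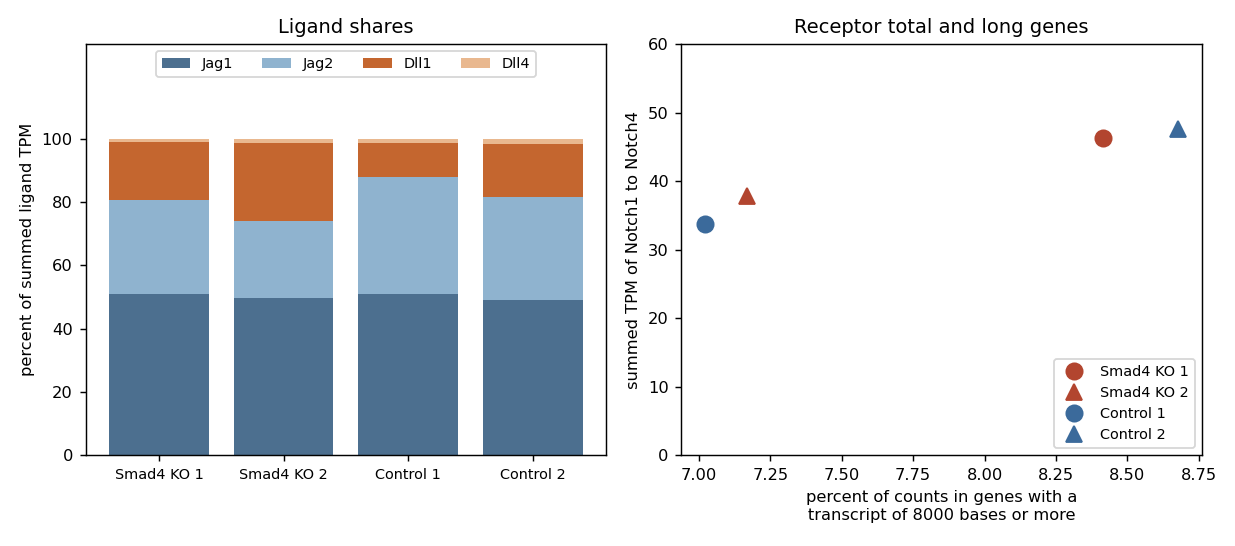
Left, percent of the summed ligand TPM taken by Jag1, Jag2, Dll1 and Dll4 in each library (Dll3 is counted in the sum and too low to show). Right, summed TPM of the receptors Notch1 to Notch4 against the percent of all counts that fell in genes with a transcript of at least 8000 bases. Jag2 takes a smaller and Dll1 a larger share in each Smad4 Knockout library than in each control, while the receptor total is high in Smad4 Knockout 1 and Control 2 and low in the other libraries.

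Lfng, the lunatic fringe enzyme whose promoter is printed above (gene ID 16848, chromosome 5, 140607341 to 140615545, plus strand), had 21.9 and 17.6 CPM in the Smad4 Knockout libraries, against 25.2 and 27.9 CPM in the controls. The groups did not overlap, with Smad4 Knockout 2 again the lowest. The means were 19.7 ± 2.99 CPM in Smad4 Knockout and 26.5 ± 1.95 CPM in Control (SD, n = 2 each). The log2 fold change of -0.43 (SE 0.16, edgeR adjusted p = 0.741) had a 95% interval of -0.81 to -0.05, and it was -0.27 without Smad4 Knockout 2.

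The receptors differed more between libraries of one group than between the groups. Notch1, needed for progenitor maintenance in many epithelia (gene ID 18128, chromosome 2, 26457902 to 26503822, minus strand), had 32.5 and 32.2 CPM in the Smad4 Knockout libraries, against 26.6 and 34.6 CPM in the controls. Notch2 (gene ID 18129, chromosome 3, 98013538 to 98150367, plus strand) had 238 and 207 CPM in the Smad4 Knockout libraries, against 190 and 252 CPM in the controls. Notch3 (gene ID 18131, chromosome 17, 32120820 to 32166896, minus strand), a receptor best known from vascular mural cells, had 7.78 and 5.11 CPM in the Smad4 Knockout libraries, against 5.28 and 7.77 CPM in the controls. Both Smad4 Knockout libraries lay between the controls for Notch1 and Notch2, both controls lay between the Smad4 Knockout libraries for Notch3, and for Notch2 and Notch3 the higher values were those of Smad4 Knockout 1 and Control 2. The log2 fold changes were 0.08 (SE 0.16) for Notch1, 0.01 (SE 0.16) for Notch2 and -0.02 (SE 0.30) for Notch3, with edgeR adjusted p-values from 0.994 to 0.999. The 95% intervals ran from -0.30 to 0.46 for Notch1, from -0.38 to 0.40 for Notch2 and from -0.74 to 0.71 for Notch3, and changes within them cannot be told from none here. Leaving out each library in turn gave values that ran from -0.10 to 0.28 for Notch1, from -0.18 to 0.22 for Notch2 and from -0.35 to 0.29 for Notch3.

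Summed over Notch1 to Notch4, the receptors had 46.2 and 37.8 TPM in the Smad4 Knockout libraries, against 33.7 and 47.6 TPM in the controls. Notch2 took 83.7% and 82.9% of that sum in the Smad4 Knockout libraries and 83.7% and 83.8% in the controls. Notch1 took 12.67% and 14.25% in the Smad4 Knockout libraries and 12.95% and 12.75% in the controls. Notch3 took 3.57% and 2.67% in the Smad4 Knockout libraries and 3.015% and 3.36% in the controls. Notch2 thus kept nearly the same share while the total varied. A general property of the libraries moved with the total. Genes with a transcript of at least 8000 bases, a limit chosen after the values were seen that takes in 1043 genes with Notch1, Notch2 and Notch3 among them, held 8.42% and 7.17% of all counts in the Smad4 Knockout libraries and 7.02% and 8.68% in the controls. The part of this in the receptor values was not tested.

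The target genes lay on both sides of 0, and none passed the test. Nrarp, which encodes a small ankyrin-repeat protein that feeds back on Notch signalling (gene ID 67122, chromosome 2, 25180758 to 25183339, plus strand), had 30.1 and 31.8 CPM in the Smad4 Knockout libraries, against 41.3 and 35.0 CPM in the controls. Both Smad4 Knockout libraries lay below both controls and close to each other. Its log2 fold change was -0.30 (SE 0.13, edgeR adjusted p = 0.802), with a 95% interval of -0.62 to 0.02, and it was -0.18 without Control 1.

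Hes1 (gene ID 15205, chromosome 16, 30065357 to 30067796, plus strand) had 39.8 and 58.3 CPM in the Smad4 Knockout libraries, against 49.01 and 43.9 CPM in the controls. The Smad4 Knockout libraries lay on either side of both controls. The log2 fold change of 0.08 (SE 0.19, edgeR adjusted p = 0.995) had a 95% interval of -0.40 to 0.56, and leaving out Smad4 Knockout 1 gave 0.33, leaving out Smad4 Knockout 2 gave -0.21. In TPM the ratio of Hes1 to Nrarp, which was not among the planned results, was 2.36 and 3.29 in the Smad4 Knockout libraries. It was 2.12 and 2.24 in the controls. Smad4 Knockout 1 thus lay only slightly above Control 2. Nrarp was lower without overlap while Hes1 overlapped, and the ratio was not tested.

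Hey1, a HES-related repressor (gene ID 15213, chromosome 3, 8663359 to 8667038, minus strand), was measured from 84 and 41 counts in the Smad4 Knockout libraries, against 47 and 27 counts in the controls. That is 0.972 and 0.423 CPM in Smad4 Knockout against 0.480 and 0.291 CPM in Control, and the groups overlapped. Its log2 fold change of 0.85 (SE 0.66, edgeR adjusted p = 0.911) had the widest 95% interval of the members, from -0.77 to 2.47, and leaving out Smad4 Knockout 1 gave 0.13, leaving out Smad4 Knockout 2 gave 1.35.

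**Figure D4:**
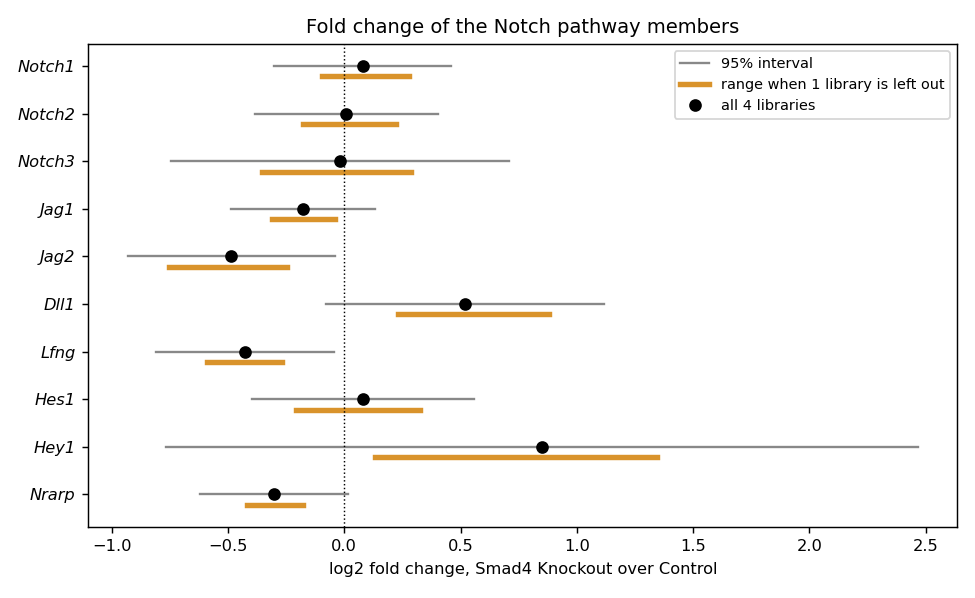
Log2 fold change, Smad4 Knockout over Control, of each member (black points) with its 95% interval (grey) and the range of the value when each library is left out in turn (orange). The intervals of Jag2 and Lfng lie below 0 before adjustment over all genes, and those of the other members include 0.

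Genes that overlap the members had few counts. The sources used here do not say whether reads were assigned by strand. The RefSeq annotation places 7 other genes over Notch1, Notch2, Notch3, Jag2 and Hey1. The highest count among them was that of Gm38585, a long noncoding RNA over Notch3, with 11 and 14 counts in the Smad4 Knockout libraries and 21 and 52 counts in the controls.

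The rest of the pathway was described from lists of 57 genes by role, of which 44 were tested. None of the 44 passed edgeR's test at an adjusted p of 0.05 and none passed DESeq2's, while 1, Numbl, had an unadjusted p under 0.05 in edgeR. Of the 44 genes 22 lay above 0 and 22 below, and the median log2 fold change was 0.0051. Of the other 13 genes, 11 had no count in any library and 2, Dll3 and Gfi1, were too low to test. The libraries did not overlap for 14 of the 44, with 9 higher and 5 lower, against 18.2% of all genes as higher and 18.6% as lower.

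**Figure D5:**
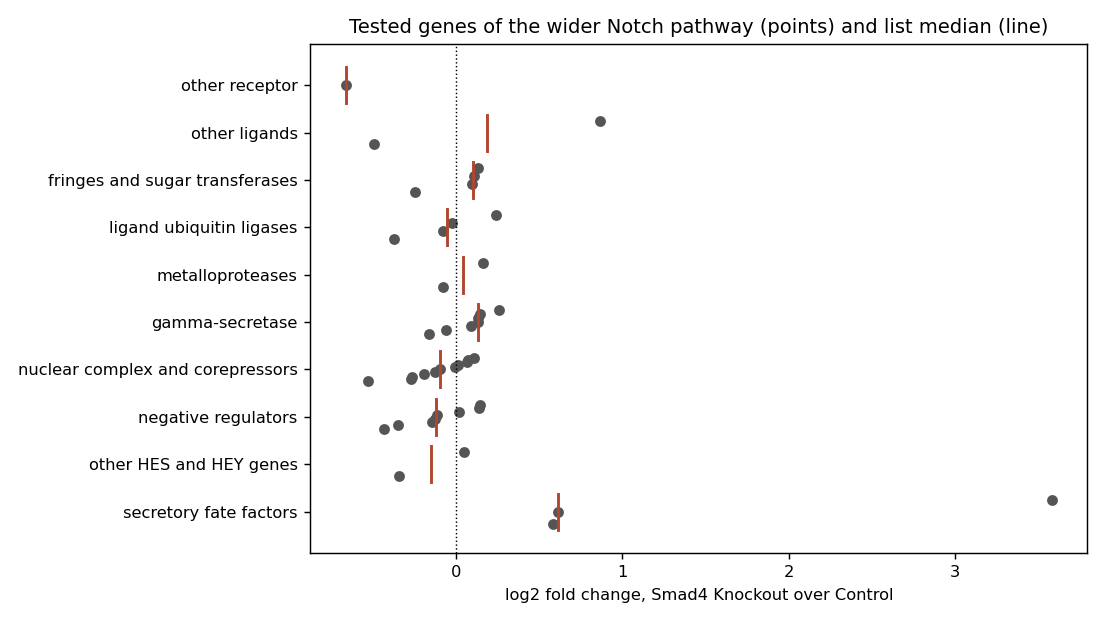
Log2 fold change, Smad4 Knockout over Control, of the 44 tested genes of the wider pathway (points) by role, with the median of each list (red line). The medians lie between -0.66, which is the value of Notch4 as the 1 tested gene of its list, and 0.62, from 3 secretory fate factors. The point at 3.58 is Atoh1, which rests on 1 library.

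The other receptor and ligands were low. Notch4, a receptor best known from endothelium, had 19 and 23 counts in the Smad4 Knockout libraries, against 54 and 16 counts in the controls. Dll4, also known from endothelium, had 1.02 and 1.06 CPM in the Smad4 Knockout libraries, against 1.32 and 1.61 CPM in the controls (log2 fold change -0.49, SE 0.34, edgeR adjusted p = 0.884). The summed endothelial markers given above were lower in both Smad4 Knockout libraries too. Most of that sum was Kdr, with 3.96 and 2.83 CPM in the Smad4 Knockout libraries, against 4.71 and 4.14 CPM in the controls. Pecam1, Cdh5 and Tek overlapped between the groups, and the part of these markers in the Dll4 values was not tested. Dlk2, a noncanonical ligand, had 1.34 and 1.83 CPM in the Smad4 Knockout libraries, against 1.21 and 0.518 CPM in the controls (log2 fold change 0.87, SE 0.50, edgeR adjusted p = 0.849). Dll3 had 3 counts in Smad4 Knockout 1 and none in the other libraries, and Dlk1 and Dner had no count in any library, which allows up to 3 counts in each.

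The 8 genes that modify receptors and ligands had log2 fold changes between -0.37 and 0.24, and none passed the test. Of the enzymes that put sugars on the receptor, Poglut1 had 24.3 and 23.6 TPM in the Smad4 Knockout libraries, against 20.9 and 22.6 TPM in the controls. Pofut1 had 13.2 and 13.7 TPM in the Smad4 Knockout libraries, against 12.2 and 12.4 TPM in the controls, and Rfng, another fringe, had log2 fold change 0.13 (SE 0.23). Mfng, the remaining fringe, named after its values were seen, had 49 and 0 counts in the Smad4 Knockout libraries, against 55 and 10 counts in the controls, and its log2 fold change of -0.25 (SE 1.79) is not resolved. Of the ubiquitin ligases that drive ligand uptake, Mib1 had 61.4 and 49.01 TPM in the Smad4 Knockout libraries, against 52.1 and 61.3 TPM in the controls, and Mib2 had 4.61 and 4.94 TPM in Smad4 Knockout against 5.04 and 4.69 TPM in Control. Neurl1b and Neurl1a had log2 fold changes of 0.24 (SE 0.15) and -0.37 (SE 0.26), with edgeR adjusted p-values of 0.873 and 0.888.

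The proteases that release the intracellular domain were all expressed. Adam10, which makes the first cut after ligand binding, had 77.2 and 61.2 TPM in the Smad4 Knockout libraries, against 49.9 and 71.0 TPM in the controls, and Adam17 had 45.6 and 48.4 TPM in Smad4 Knockout against 47.1 and 50.2 TPM in Control. Of the 7 genes of the gamma-secretase list, which make the second cut, 5 lay above 0 and 3 did not overlap between the groups, all 3 as higher. Of all tested genes 36.9% did not overlap in either direction and 18.2% as higher. Ncstn had log2 fold change 0.15 (SE 0.12), Psenen 0.09 (SE 0.18) and Aph1a -0.06 (SE 0.13).

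In the nucleus, Rbpj had 103 and 79.4 CPM in the Smad4 Knockout libraries, against 101.3 and 117 CPM in the controls (log2 fold change -0.26, SE 0.16, edgeR adjusted p = 0.860). The deposited TPM ordered the libraries otherwise, with 21.2 and 21.9 TPM in Smad4 Knockout against 17.1 and 31.0 TPM in Control. Ctbp1, a corepressor and the gene with the highest TPM in the wider lists, had 208 and 198 CPM in the Smad4 Knockout libraries, against 232 and 232 CPM in the controls (log2 fold change -0.19, SE 0.10, edgeR adjusted p = 0.832). It was the 1 gene of the 11 in its list whose groups did not overlap, against 36.9% of all tested genes in either direction and 18.6% as lower. Snw1 and Kat2b, coactivators, had log2 fold changes of -0.0018 (SE 0.11) and 0.08 (SE 0.10).

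Among negative regulators, Numbl, a homologue of the Notch inhibitor Numb, had 6.14 and 5.81 CPM in the Smad4 Knockout libraries, against 8.17 and 7.96 CPM in the controls (log2 fold change -0.43, SE 0.17, edgeR adjusted p = 0.785). The groups did not overlap, and each was tight. Dtx3, a Deltex family member, had log2 fold change -0.35 (SE 0.20), while the ubiquitin ligase Itch had 0.14 (SE 0.10), Dtx4 had 0.02 (SE 0.17) and Fbxw7, which marks the intracellular domain for destruction, had -0.11 (SE 0.12). Dtx1 had no count in any library.

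Of the other HES and HEY genes, Hes6 had 22.1 and 20.6 TPM in the Smad4 Knockout libraries, against 21.8 and 18.3 TPM in the controls. Hey2 had at most 28 counts in any library, and Hes2, Hes3, Hes5, Hes7 and Heyl had none in any. Hes1 was thus the HES or HEY gene with the highest TPM in every library, ahead of Hes6.

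The last list holds secretory fate factors, several of which HES1 is known to repress in the gut. Spdef, a goblet cell factor, had 7.69 and 14.4 CPM in the Smad4 Knockout libraries, against 8.04 and 6.40 CPM in the controls (log2 fold change 0.62, SE 0.32, edgeR adjusted p = 0.837). Atoh1, the master regulator of intestinal secretory cells, had 2 and 137 counts in the Smad4 Knockout libraries, against 0 and 11 counts in the controls, so its level was that of Smad4 Knockout 2, the library in which Hes1 was highest too. Insm1, an endocrine factor, had 1.90 and 1.64 CPM in the Smad4 Knockout libraries, against 1.48 and 0.874 CPM in the controls (log2 fold change 0.59, SE 0.38, edgeR adjusted p = 0.877). The mucous cell markers Gkn1 and Tff1, given above, were also highest in Smad4 Knockout 2, while Tff2 was highest in Smad4 Knockout 1. The part of these markers in the values of the list was not tested. Neurog3 and Neurod1 had no count in any library.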

How the data were processed

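Total RNA was sequenced from 4 libraries made with a stranded, ribosomal RNA depleting Illumina kit, per the labels' protocols. The labelled genotype set the groups; replicate numbers only name samples and pair nothing. Named in the submitters' processing notes are HISAT2 2.1.0, StringTie 2.1.3b, Trimmomatic, bcl2fastq 2.20.0 and the build mm10. How reads were counted, and whether by strand, the sources used here do not say. The deposited files give, per the file headers, read counts, whole numbers treated here as estimated counts, and TPM computed by the authors. A total of 5 FPKM columns were not used, 1 of them found in another sample's file. The columns of Control 2 carry its title with an added 2.

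The members and lists were chosen with earlier results of these data known. Counts were tested with edgeR 4.0.16 in R 4.3.3 (quasi-likelihood F-test, TMM, filterByExpr with a minimum count of 10, genotype as the only term, Benjamini-Hochberg over 18115 genes, adjusted p of 0.05). The common dispersion corresponds to a coefficient of variation of 26.1%. The SE is the fold change over the root of the F statistic. Intervals are per gene and not adjusted. Where no read was counted, up to 3 counts remain possible, for counting error only. As alternatives, size factors were set by RLE, the count filter was dropped, DESeq2 1.42.0 was run, and limma 3.58.1 with trend was run on log2(TPM + 1) over genes that reached 1 TPM in 2 or more libraries, with a pseudocount of 0.1, no TPM filter, and leaving out each library. CPM per kilobase of the longest GENCODE transcript was added after seeing the data, as no RefSeq transcript length was at hand. The tests were tried on simulated data. In each wider list the genes named are those with no count, the 3 with the highest mean TPM and the 2 with the smallest p; other genes were named after their values were seen, and some genes the rule takes are not reported here. An exact permutation test of 2 libraries against 2 was not used, since it cannot reach an adjusted or unadjusted p of 0.05.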

Additional observations from a re-analysis of the deposited data

How the results depend on the processing

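The 10 members stayed uncalled under every alternative run (RLE size factors, no count filter, DESeq2, limma on TPM with either pseudocount or without a filter, and each library left out), except that Hey1 fell under the TPM filter and was not tested in the limma fits that use it. DESeq2 called 127 genes, with 96 higher and 31 lower, against 0 in edgeR, and the cause was not tested. Without 1 library edgeR called 0 to 92 genes, the 92 without Smad4 Knockout 1 and 1 without Control 1. Of 98 recomputed member fold changes 89 kept their direction and 9 changed sign, all of them for Notch1, Notch2, Notch3 and Hes1. Notch3 was at 0.0099 with limma on log2(TPM + 1), with and without a filter, and at 0.014 on log2(TPM + 0.1). With 1 library left out, the log2 fold change ran from -0.10 to 0.28 for Notch1, -0.18 to 0.22 for Notch2, -0.35 to 0.29 for Notch3 and -0.21 to 0.33 for Hes1. The members' median ran from -0.18 to 0.11 and their count without overlap was 7 each time, against 61.0% to 72.7% of all genes. The median of the wider lists was 0.046 with limma on log2(TPM + 1) and 0.048 on log2(TPM + 0.1), against 0.0051 in edgeR. The median of all tested genes moved as well, from -0.0026 in edgeR to 0.027 and 0.029 in those limma fits. Without 1 library the median of the wider lists ran from 0.021 to 0.059. A fit without 1 library assumes that the lone library of its group varies as the other group does. Planned lengths from RefSeq transcripts were not run. No paired analysis was possible because the replicate numbers follow sample order. With 2 libraries a group and a coefficient of variation of 26.1%, the intervals of the members are wide, and Hey1 also rests on only 27 to 84 counts a library.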
